A study of Homo sapiens with 15 samples.

Results

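The 3 antagonist-resistant sublines of the VCaP prostate cancer cell line were compared with the androgen-deprived subline from which they were grown. The comparison used 12 of the 15 RNA-seq libraries of the series: 3 of VCaP-CT and 3 of each resistant subline, which are titled VCaP-CT-BR-ER, VCaP-CT-ER and VCaP-CT-BR and called BR-ER, ER and BR for short. Genes were kept where each subline differed from VCaP-CT in the same direction at an adjusted p under 0.05, out of 19621 genes tested. Of these, 2403 genes rose in all 3 sublines and 2616 fell in all 3.

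All libraries came from VCaP cells kept in medium with charcoal-stripped serum. Growth in 10 nM testosterone over 7 months gave VCaP-T, and moving VCaP-T to 0.1 nM for a further 10 months gave VCaP-CT, although a treatment label lists 10 nM for every sample. ER was VCaP-CT that grew out again under 10 µM enzalutamide, and BR was VCaP-CT grown with bicalutamide (1 label also mentions a later exposure to enzalutamide). BR-ER came from cells that no longer responded to bicalutamide and that then grew out under enzalutamide, at a dose not given. Every subline was derived 1 time and the last shares its bicalutamide history with BR, so the 3 contrasts are not 3 independent derivations. They also share the 3 VCaP-CT libraries, so a chance deviation of VCaP-CT enters all 3. Whether drug was present at harvest is not stated. The p-values measure the spread between the 3 replicates of a subline.

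Prostate cells depend on androgens, which drive secretory genes such as KLK3, the gene of prostate-specific antigen. Androgen deprivation lowers the hormone, whereas enzalutamide and bicalutamide are antiandrogens that block its action in the cell. VCaP carries a fusion that puts ERG, an ETS transcription factor, under the promoter of TMPRSS2, so that ERG itself is induced by androgens. The comparison asks what outgrowth under an antagonist adds to growth at low androgen.

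Libraries held between 33665716 and 46935279 counted fragments, with the 3 lowest totals in VCaP-CT, and levels are given as CPM, counts scaled to library size. Where a gene has 3 log2 fold changes, they are those of ER, BR and BR-ER, in this order. Each library correlated best with another of its own subline. ERG, TMPRSS2, HOXB13, FOXA1, KRT8, KRT18 and EPCAM were counted in every library. The share of counts on the mitochondrial genome was 7.18% to 7.601% in VCaP-CT and 7.555% to 9.561% in the 9 antagonist-resistant libraries.

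Each subline differed from VCaP-CT in a large part of the genes tested. ER was higher in 29.6% and lower in 31.2% of them, BR in 26.1% and 27.0%, and BR-ER in 26.2% and 26.4%. The mean of the sublines, weighted equally, was higher in 28.2% and lower in 30.7%. Shared rises made up 12.2% of tested genes and shared falls 13.3%. Another 922 genes passed in all 3 contrasts with opposite directions, and 3980 passed in none. The falls were the larger changes: their median log2 fold change was −0.80, against 0.51 for the rises and −0.02 for all genes. A change of at least 2-fold in every subline was found for 221 rises (1.13% of tested genes) and 576 falls (2.94%). Long noncoding genes held 120 rises and 271 falls of 2824 tested, and protein-coding genes 2141 and 2135 of 13849. Just inside the threshold stood NAMPT, with a largest adjusted p of 0.0499, and just outside it TIGD7, with 0.05.

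Over all genes, the 9 antagonist-resistant libraries lay above the 3 of VCaP-CT in 13.6% and below them in 14.1%. For shared genes the groups did not overlap in 2271 of the rises (94.5%) and 2390 of the falls (91.4%), which the selection itself favours. Against all 6 libraries of VCaP-T and VCaP-CT, the 9 lay above in 7.95% of all genes and below in 8.07%. This held for 1384 of the shared rises (57.6%) and 1431 of the shared falls (54.7%), whose levels thus lay outside those at either testosterone dose. In the remainder the antagonist-resistant libraries overlapped VCaP-CT, or VCaP-T overlapped them or lay beyond them.

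The leading rises included ID genes, known targets of bone morphogenetic protein (BMP) signalling, which acts through SMAD transcription factors. ID1 (chr20:31605283-31606515, GRCh38), an inhibitor of basic helix-loop-helix factors and a standard BMP target, stood at 1.91, 1.93 and 2.63 CPM in VCaP-CT. It stood at 101, 106 and 127 CPM in ER, at 46.5, 53.1 and 58.1 in BR and at 24.2, 34.4 and 50.2 in BR-ER. All 9 values lay above VCaP-CT and above VCaP-T, at 6.99 to 7.68 CPM. The mean log2 fold change was 4.79 (SE 0.206; largest adjusted p of the 3 contrasts 2.84e-12, edgeR). ID3 (chr1:23557918-23559794), of the same family, went from 8.36, 8.94 and 10.7 CPM to between 44.4 and 175 (median 83.9), a log2 fold change of 3.32 (SE 0.159). ID4, another member, rose by 2.37 (SE 0.0585), but its 9 libraries at 77.9 to 164 CPM overlapped VCaP-T, at 158 to 172 CPM. ATOH8, a helix-loop-helix factor, went from 0.272, 0.447 and 0.513 CPM to between 4.69 and 12.8.

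Of 43 tested genes of the TGF-beta and BMP pathway, 10 rose (23.3%), 3 of them by 2-fold or more in each subline, and 6 fell (14.0%). Over all tested genes the shares were 12.2% and 13.3%. Without VCaP-CT replicate 2 the counts were 9 and 2. The median log2 fold change of the list was 0.08. The falls were smaller than the ID genes' rises and included LTBP3, which stores latent TGF-beta in the matrix (−0.95, SE 0.0767), the receptor BMPR1B (−0.93, SE 0.0719) and the protease BMP1 (−0.62, SE 0.0835). For BMP1, libraries of the groups overlapped, and the call was lost when an offset for GC content was fitted and when VCaP-CT replicate 2 was left out (largest adjusted p 0.0663, edgeR), or BR-ER replicate 1 or 3.

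IGFBP3 (chr7:45912245-45921874), which binds insulin-like growth factors outside the cell, was at 9.08, 10.0 and 11 CPM in VCaP-CT and between 73.9 and 270 CPM (median 120) in the 9 libraries, with ER highest. VCaP-T, at 20.7 to 25.6 CPM, lay between. ANTXR2 (chr4:79901149-80125454), a receptor for collagen fragments and anthrax toxin, was the most even of the strong rises: 7.21, 7.55 and 7.61 CPM in VCaP-CT against 59.6 to 86.0 CPM (median 65.2), a log2 fold change of 3.22 (SE 0.0549). A pseudogene, KPNA2P1, overlaps it on the other strand, and the counting did not use strand. Other rises in this group were CPPED1, a phosphatase (log2 fold change 5.38), the ciliary gene CEP126 (3.14), the basement membrane gene FRAS1 (3.17), the lysine-degrading enzyme AASS (4.44) and THNSL1 (3.73). In the VCaP-CT libraries CPPED1 had 1, 11 and 5 counts and AASS 1, 2 and 11, so the size of their folds is uncertain. CPPED1 and THNSL1 had been lower in VCaP-CT than in VCaP-T by 5.77 and 4.40 on the log2 scale. Both stood above VCaP-T in ER and below it in BR and BR-ER. GRIA2, a glutamate receptor subunit, had 0 counts in VCaP-T, 0.0604 to 0.168 CPM in VCaP-CT and 0.967 to 9.34 CPM in the 9 libraries.

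**Figure D1:**
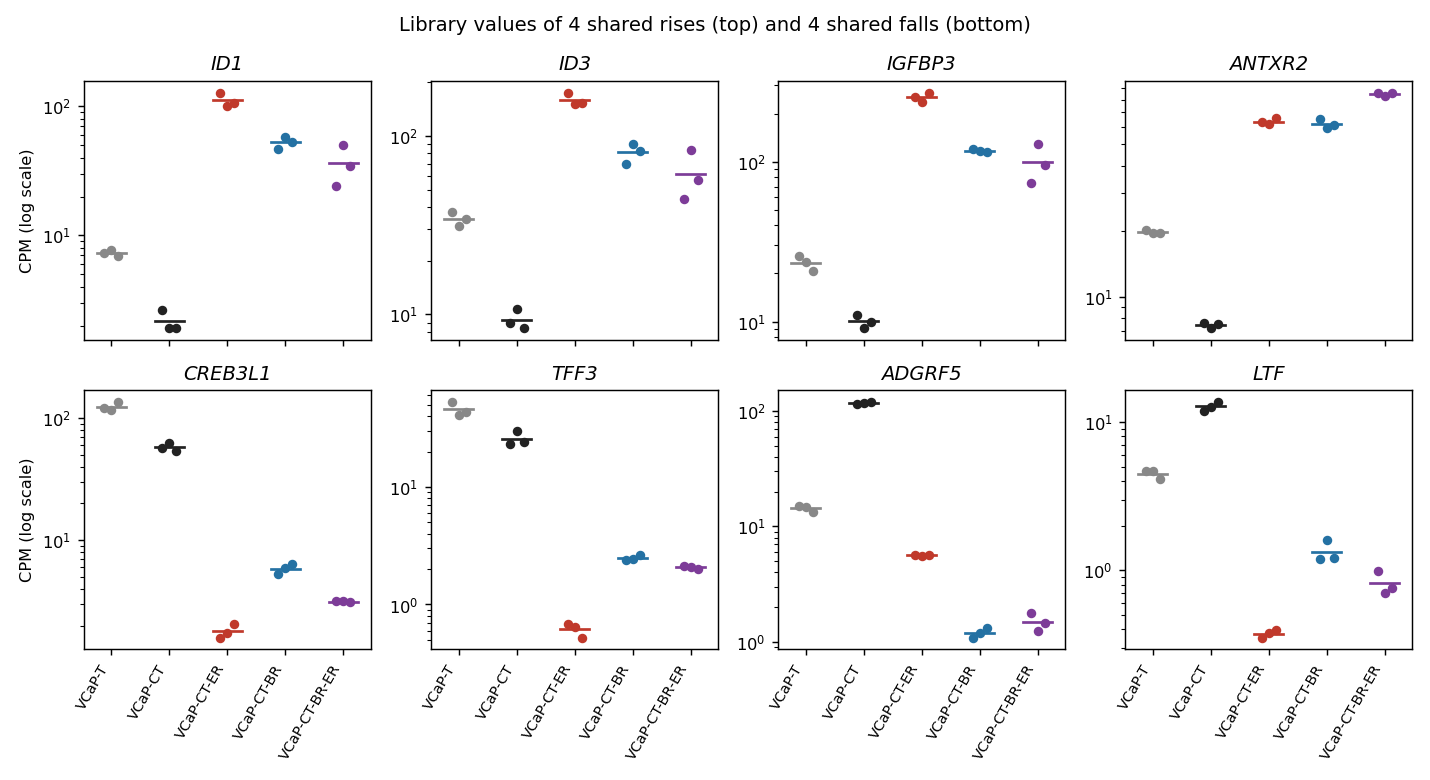
Level of 8 shared genes in every library, in CPM on a log axis, by subline; each point is a library and each bar the mean of 3. ID1, ID3, IGFBP3 and ANTXR2 are higher in all 9 antagonist-resistant libraries than in the 3 of VCaP-CT, and CREB3L1, TFF3, ADGRF5 and LTF are lower in all 9.

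Genes of cell division had the largest share of rises of the lists described here. Cells leaving S phase switch on a common set of mitotic genes, many of which carry a CHR element (TTTGAA) and CCAAT boxes in their promoters. Of 48 mitosis genes tested, 39 rose in all 3 sublines and 0 fell, beside 12.2% and 13.3% of all genes. The median log2 fold change was 0.76, or 0.59 in ER, 0.89 in BR and 0.86 in BR-ER. With the GC offset the counts were 42 and 0.

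TOP2A, which untangles DNA, was at 260, 292 and 294 CPM in VCaP-CT, at 712, 719 and 779 in ER, at 571, 609 and 633 in BR and at 655, 716 and 730 in BR-ER. Its log2 fold change of 1.26 (SE 0.0576; largest adjusted p 2.22e-11, edgeR) was the largest of the list. CDK1, the kinase that starts mitosis, went from 88.8, 106 and 109 CPM to between 172 and 249 (median 205; log2 fold change 1.04, SE 0.0658). NUF2, a kinetochore subunit, went from 20.5, 21.9 and 22.2 CPM to between 37.8 and 48.9 (0.98, SE 0.058). In all 3 genes the 9 libraries also lay above VCaP-T.

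ASPM, CENPF and DLGAP5, all of the spindle or kinetochore, followed with log2 fold changes of 1.20, 1.17 and 1.11. The 9 genes that did not rise in every subline were CDC25C, KIF20A, SPC24, BUB3, PLK1, CCNB1, MKI67, KIF14 and CENPE. For most of these the ER value was the low one: CENPE, a kinesin of the kinetochore, had log2 fold changes of −0.03, 1.85 and 0.85 in ER, BR and BR-ER. MKI67, the marker read by Ki-67 staining, had 0.17, 0.91 and 0.97. In 40 of 48 genes all 9 libraries lay above VCaP-CT, and in 35 they also lay above VCaP-T. Relative to VCaP-CT, the median of the list was −0.36 to −0.24 in the VCaP-T libraries, 0.53 to 0.63 in ER, 0.82 to 0.94 in BR and 0.82 to 0.83 in BR-ER. The list thus also stood lower at the high testosterone dose than at the low one.

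**Figure D2:**
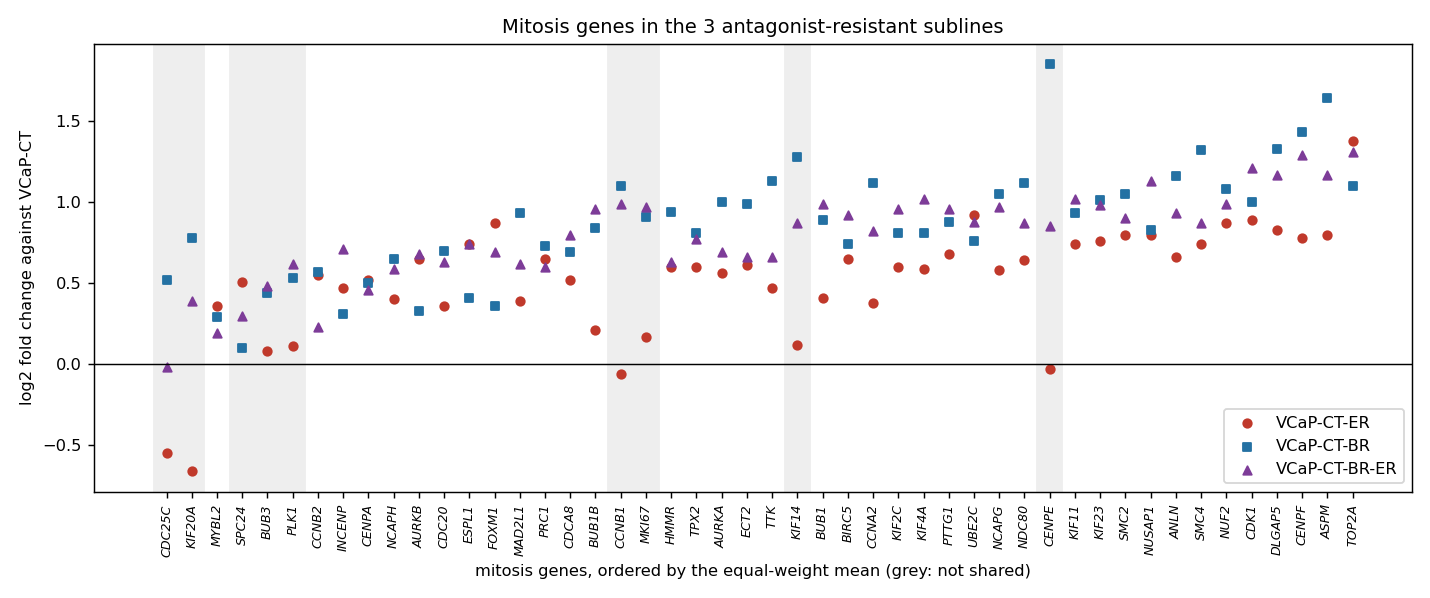
Log2 fold change over VCaP-CT of the 48 mitosis genes in each of the 3 sublines, ordered by their mean; grey bands mark the 9 genes that did not pass in all 3. Of the means, 47 lie above 0 and the highest is that of TOP2A, at 1.26.

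Promoters are shown for the 3 shared mitosis rises whose smallest change over the 3 contrasts was largest, with the mitotic motifs marked. They are RefSeq sequences of GRCh38.p14, 250 bases before to 50 after the start of the gene, 5′ to 3′ on its strand, with TTTGAA and CCAAT of either strand in capitals (TTCAAA and ATTGG where the match is on the other strand). TOP2A (chr17:40417847-40418146, minus strand) holds 4 CCAAT and 2 TTTGAA matches, CDK1 (chr10:60778081-60778380, plus strand) 1 of each, and NUF2 (chr1:163321704-163322003, plus strand) 1 TTTGAA and 0 CCAAT. The NUF2 match lies 16 bases after the start of the gene.
TOP2A: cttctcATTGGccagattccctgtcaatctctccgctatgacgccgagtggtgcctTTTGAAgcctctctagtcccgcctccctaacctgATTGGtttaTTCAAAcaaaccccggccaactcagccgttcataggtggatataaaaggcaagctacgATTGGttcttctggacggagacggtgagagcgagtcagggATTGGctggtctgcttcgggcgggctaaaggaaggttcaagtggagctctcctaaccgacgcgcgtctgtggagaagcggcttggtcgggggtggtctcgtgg
CDK1: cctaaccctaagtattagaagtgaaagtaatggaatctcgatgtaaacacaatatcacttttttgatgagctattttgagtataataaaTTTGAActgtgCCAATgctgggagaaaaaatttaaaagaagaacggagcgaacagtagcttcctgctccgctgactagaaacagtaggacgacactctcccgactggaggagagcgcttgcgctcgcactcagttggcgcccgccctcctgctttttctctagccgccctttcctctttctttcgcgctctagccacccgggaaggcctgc
NUF2: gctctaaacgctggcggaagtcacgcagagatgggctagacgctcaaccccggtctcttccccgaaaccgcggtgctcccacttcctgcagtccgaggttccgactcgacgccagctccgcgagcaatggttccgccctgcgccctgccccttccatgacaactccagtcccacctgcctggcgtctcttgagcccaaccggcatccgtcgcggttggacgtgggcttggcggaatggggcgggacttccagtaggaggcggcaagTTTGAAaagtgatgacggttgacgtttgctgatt

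TTTGAA, searched on both strands, was present in 26 of the 33 shared mitosis rises with a promoter in the RefSeq table (78.8%), in 3 of the 8 that were not shared (37.5%) and in 9.63% of the promoters of 11196 tested protein-coding genes. CCAAT was present in 24 of 33 (72.7%), in 6 of 8 and in 36.4%. Over all 27305 promoters of the table the shares were 15.4% and 35.7%. Among shared rises of any kind TTTGAA was found in 14.7% and among shared falls in 6.59%. Of the 17 shared rises of DNA replication with a promoter, 0 held TTTGAA and 52.9% held CCAAT. A match describes these letters and not a bound site.

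DNA replication genes moved less. Of 47 tested, 21 rose and 0 fell, with a median log2 fold change of 0.30, and 21 and 0 passed with the GC offset. RRM2, which makes deoxynucleotides, rose by 0.88 (SE 0.0503) without reaching beyond VCaP-T, while the helicase MCM8 and the helicase loader GINS3 each rose by 0.63 and did. RRM2 has near-identical pseudogene copies, so its counts are uncertain. Of 28 regulators of the G1 phase, 14 rose and 2 fell (median 0.45; 16 and 1 with the GC offset). The rises took in both accelerators and brakes. CDKN2C, an inhibitor of CDK4 and CDK6, went from 15.9, 16.5 and 18.2 CPM to between 38.8 and 53.5 (1.41, SE 0.0498) and the related CDKN2D rose by 1.12, while cyclin CCNE2 rose by 0.68. Cyclin CCND3 was among the falls (−0.49, SE 0.0543), a call lost with the GC offset, with no filter on low counts (largest adjusted p 0.0704, edgeR) and without VCaP-CT replicate 1 or 2 or BR replicate 1 (up to 0.15). CCND1 had log2 fold changes of 1.07, −0.17 and −0.04 and is not shared. MYC fell in all 3, from 510, 545 and 603 CPM to between 315 and 471 (−0.45, SE 0.0474), and VCaP-T lay below them all.

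Androgen-induced genes went both ways. Of 28 tested, 8 rose and 6 fell (median 0.32), and they took different courses in the sublines. KLK3 was at 3532 to 3617 CPM in VCaP-T and at 32.3, 32.6 and 34.5 in VCaP-CT. It was at 499, 527 and 535 in ER, at 13.5, 14.4 and 14.4 in BR and at 38.1, 40 and 42 in BR-ER, so the sublines differed from VCaP-CT by log2 fold changes of 3.97, −1.23 and 0.27. KLK3 is therefore not a shared gene. KLK2, a related protease, was at 0.10, −0.63 and −1.24 and is not shared.

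The shared rises among these genes included HPGD, which inactivates prostaglandins, at 18.3, 22.2 and 23.6 CPM in VCaP-CT and 60.9 to 254 in the 9 libraries (2.46, SE 0.0707). VCaP-T stood at 1923 to 2089 CPM, far above the antagonist-resistant libraries. PLPP1, a lipid phosphatase, rose by 1.55 and EAF2, an elongation factor partner, by 1.24. FKBP5, a chaperone, rose by 0.52 (largest adjusted p 0.0119, edgeR), and this call was lost with the GC offset, with upper quartile scaling and without BR replicate 1 (0.112). The shared falls included STEAP4, a metalloreductase, which was at 129 to 140 CPM in VCaP-T, at 1.54 to 2.02 in VCaP-CT and at 0.0627 to 0.389 in the 9 libraries. TMPRSS2, a membrane protease, fell from 134, 137 and 138 CPM to between 87.3 and 111 (−0.51, SE 0.0403). ERG fell from 414, 415 and 416 CPM to between 244 and 282 (−0.66, SE 0.0359; largest adjusted p 3.87e-10), below VCaP-T as well. For STEAP4 and TMPRSS2, VCaP-CT was already lower than VCaP-T, by 6.27 and 2.25 on the log2 scale, and the antagonist-resistant libraries were lower again.

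The genes with the largest falls in every subline included CREB3L1, TFF3, LTF, FMOD, B3GNT6 and CST2. CREB3L1 (chr11:46277661-46321422), a membrane-bound factor that drives secretory and matrix genes, was at 54.2, 56.7 and 62.4 CPM in VCaP-CT. It was at 1.59, 1.73 and 2.06 in ER, at 5.26, 5.94 and 6.32 in BR and at 3.09, 3.16 and 3.17 in BR-ER, and VCaP-T stood at 116 to 135. The log2 fold change was −4.17 (SE 0.0616; largest adjusted p 3.63e-17). TFF3 (chr21:42311667-42315651), a secreted trefoil peptide of mucous epithelia, went from 23.3, 24.1 and 29.7 CPM to between 0.522 and 2.65 (−4.12, SE 0.0896).

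LTF (chr3:46435645-46485234), the secreted iron-binding protein lactoferrin, went from 11.9, 12.7 and 13.6 CPM to between 0.352 and 1.6 (−4.09, SE 0.0947). FMOD, a collagen-binding proteoglycan, went from 9.17, 9.87 and 10.4 CPM to between 0 and 0.372. B3GNT6, which builds mucin sugar chains, fell by 3.41 (SE 0.124). CST2, a salivary cystatin, was at 9867 to 11056 CPM in VCaP-T, at 14.4, 15.4 and 16.4 in VCaP-CT and at 0.0262 to 2.01 in the 9 libraries. For all 4 genes the 9 libraries lay below both VCaP-CT and VCaP-T.

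ADGRF5 (chr6:46852512-46954943), an adhesion receptor known from lung, was at 115, 117 and 119 CPM in VCaP-CT and at 1.09 to 5.71 in the 9 libraries (−5.75, SE 0.0553). It had been raised in VCaP-CT over VCaP-T by 3.03 on the log2 scale. The neighbouring odorant receptors OR51E1 and OR51E2, used as prostate markers, showed the same course: OR51E1 was at 12.9 to 14.3 CPM in VCaP-CT, above both VCaP-T (0.494 to 0.817) and the 9 libraries (0.0414 to 1.36). OR51E2 was at 11.3 to 12.7 CPM in VCaP-CT, at 0.853 to 0.980 in VCaP-T and at 0 to 1.03 in the 9. For these 2 receptors ER and BR lay below VCaP-T, whereas BR-ER lay above it for OR51E1 and spanned it for OR51E2. KCNH8, a potassium channel, went from 22.4, 24.0 and 25.3 CPM to between 0 and 0.917. IKZF1, a lymphoid transcription factor, had 72, 74 and 102 counts in VCaP-CT and 0 to 4 in the 9 libraries, so no fold is given.

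Luminal epithelial genes had 2 rises and 4 falls among 24 tested (median −0.08; 4 and 3 with the GC offset). The homeobox factor HOXB13 fell from 659, 709 and 760 CPM to between 364 and 516 (−0.68, SE 0.0467) and the ETS factor SPDEF fell by 1.04 (SE 0.0868). KRT8 fell by 0.58 and has many pseudogene copies. Splicing factor ESRP1 and epithelial factor GRHL2 rose, by 0.45 and 0.30, though GRHL2 lost its call with upper quartile scaling and without VCaP-CT replicate 3 (0.0882) or BR replicate 1. Of 11 basal genes, 6 fell and 1 rose (median −0.99; 5 and 1 with the GC offset): KRT14 fell by 2.36, integrin ITGA6 by 1.37 and laminin LAMA3 by 0.99, while DST, a cytoskeletal linker, rose by 1.24. KRT5 and TP63, the defining basal markers, were at or under 6 counts in every library. Of 18 ETS factors, 7 fell, among them ERG, SPDEF, ETS1 (−1.74) and FEV (−1.07), and 2 rose, ELK4 (0.37) and ELF1 (0.47), both of which lost the call with the GC offset. Of 21 prostate surface antigens, 5 rose and 2 fell. FOLH1, the gene of prostate-specific membrane antigen, went from 12.8, 13.6 and 14.4 CPM to between 17.4 and 46.2 (1.02, SE 0.0751), STEAP2 rose by 0.70, and DPP4 fell by 2.83.

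Receptors and ligands of growth pathways fell more often than they rose, beside 12.2% shared rises and 13.3% shared falls over all genes. Of 29 receptor tyrosine kinases, 9 fell and 2 rose (median −0.37). With the GC offset 8 of them fell and 3 rose. EGFR, the epidermal growth factor receptor, went from 30.9, 32.5 and 34.0 CPM to between 10.2 and 17.2 (−1.29, SE 0.051), after a fall of 1.25 on the log2 scale from VCaP-T to VCaP-CT. RET fell by 2.47 and FGFR4 by 1.18. MET, the receptor of hepatocyte growth factor, rose from 7.97, 9.24 and 10.1 CPM to between 15.2 and 26.1 (1.12, SE 0.0893), and EPHA4 rose by 1.29. Of 25 growth factors and their binding proteins, 2 rose, IGFBP3 among them, and 7 fell, with HBEGF, a ligand of EGFR, at −1.27, PDGFA at −0.77 and VEGFB at −1.07. MAPK output and feedback genes had 3 rises and 6 falls among 25. With the GC offset the growth factor list had 2 rises and 5 falls, and the MAPK list 3 and 5.

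Notch pathway genes had 1 rise and 9 falls among 27 (median −0.42; 1 and 7 with the GC offset). LFNG, which modifies Notch receptors, went from 6.57, 7.77 and 8.18 CPM to between 1.28 and 2.46 (−2.06, SE 0.0994), the target-like factor HES2 fell by 1.57 and the coactivator MAML2 by 2.35. RBPJ, the DNA-binding partner of Notch, was the rise (0.23, SE 0.0456), with overlapping libraries, and it lost its call with the GC offset, with upper quartile scaling, with a minimum of 10 counts in every library (0.055) and without BR-ER replicate 3 (0.185) and 3 other single libraries, VCaP-CT replicates 1 and 2 and BR-ER replicate 1. Wnt pathway genes had 3 rises and 9 falls among 40: the stem cell receptor LGR5 fell by 2.27, the ligand WNT5B by 2.55 and the receptor FZD8 by 1.36, whereas FZD3 rose by 0.67, LGR4 by 0.50 and WLS, which exports Wnt ligands, by 0.69. NF-kappaB and cytokine genes had 1 rise and 6 falls among 23. RELB, a subunit of NF-kappaB, fell from 13.4, 15.3 and 17.5 CPM to between 3.25 and 5.45 (−1.74, SE 0.0824), the target genes BIRC3 and TNFAIP3 fell by 1.67 and 1.65, and the cytokine receptor LIFR rose by 0.95.

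Of 29 nuclear receptors in a list of them, 4 rose and 7 fell. HNF4G, a factor of gut and liver, went from 0.171, 0.272 and 0.279 CPM to between 1.07 and 22.2, with VCaP-T at 9.88 to 10.8, and NR5A2 from 0.543, 0.587 and 0.627 to between 1.61 and 20.4. NR4A2, an immediate early gene, rose by 1.47. ESRRA, which drives mitochondrial genes, fell by 1.75, the vitamin D receptor VDR by 1.34 and the retinoic acid receptor RARG by 0.71. NR3C1, the glucocorticoid receptor, was at 43 to 50 CPM in VCaP-T and at 1.84 to 2.88 in VCaP-CT. It was at 5.4 to 5.6, 4.67 to 4.89 and 1.23 to 1.92 CPM in ER, BR and BR-ER, so it is not shared. Steroid synthesis and clearance genes had 1 rise and 3 falls among 24.

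Extracellular matrix genes had 6 rises and 15 falls among 40 (median −0.44; 8 and 14 with the GC offset, 3 and 14 under a stricter filter of 10 counts per library). SPOCK1, a matrix proteoglycan, fell from 404, 409 and 412 CPM to between 111 and 196 (−1.44, SE 0.0376), and the cartilage collagens COL9A3 and COL9A2 fell by 1.48 and 1.35. The proteoglycans of the cell surface SDC2 and GPC6 rose by 2.67 and 1.87. Both had risen from VCaP-T to VCaP-CT too: SDC2 stood at 0.188 to 0.303 CPM in VCaP-T, at 1.06 to 1.66 in VCaP-CT and at 5.17 to 11.7 in the 9 libraries. Junction and adhesion genes had 6 rises and 7 falls among 37, and mesenchymal genes 1 and 3 among 20.

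Neuroendocrine and neuronal genes had 4 rises and 4 falls among 29 (median 0.25). The median was above 0 in ER only, at 0.51, and was −0.23 in BR and −0.24 in BR-ER. PEG10, a retrotransposon-derived gene seen in neuroendocrine prostate cancer, went from 150, 150 and 156 CPM to between 367 and 675 (1.63, SE 0.0634), and GPM6B rose by 1.36. INSM1, a factor of neuroendocrine cells, fell from 18.7, 20.1 and 21.8 CPM to between 4.43 and 12.8 (−1.38, SE 0.0613), and the splicing factor SRRM4 and the granule gene SCG3 fell by 1.43 and 1.36. The SCG3 call was lost without VCaP-CT replicate 1 (adjusted p 0.132, edgeR) or replicate 3, without any 1 of the BR libraries, and with the 12 libraries alone. ENO2 fell by 0.24, a call lost with the GC offset, with no filter on low counts (0.112) and without VCaP-CT replicate 2 or ER replicate 1 or 3 (up to 0.0942), SYP was not shared (−0.27, −0.04 and −1.53), and no library had more than 1 count of CHGA.

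Cytosolic ribosomal proteins had 0 rises and 17 falls among 50 (median −0.21; 0 and 20 with the GC offset), led by RPL15, from 2152, 2252 and 2305 CPM to between 1396 and 1691 (−0.51, SE 0.0357), and RPS2 (−0.56). Many have pseudogene copies, which makes their counts uncertain. In VCaP-T the median of the list was −0.87 to −0.61 relative to VCaP-CT. Ribosome biogenesis genes had 6 rises and 1 fall among 45. Of 13 genes of the mitochondrial genome, 4 rose and 0 fell, MT-ND6 by 0.90 and MT-ND5 by 0.71, whereas the nuclear subunits of oxidative phosphorylation had 2 rises and 2 falls among 44 (2 and 6 with the GC offset). With no filter on low counts, 7 of the 13 rose.

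Of 31 genes of cholesterol synthesis and uptake, 8 rose and 4 fell, or 5 and 4 without BR replicate 1. The synthesis enzymes MSMO1, SC5D and HMGCS1 rose by 0.89, 0.62 and 0.72 (HMGCS1 not with the GC offset), and ABCG1, which exports cholesterol, fell by 1.30. Fatty acid genes had 9 rises and 1 fall among 38, with the elongase ELOVL6 at 1.18 and AMACR, a peroxisomal racemase used as a prostate cancer marker, at 0.97, against the lipase PNPLA2 at −0.75. AMACR is overlapped by a read-through transcript. Glycolysis and hypoxia genes had 5 rises and 6 falls among 37, ATF4 and amino acid supply genes 6 and 2 among 40, endoplasmic reticulum folding genes 5 and 1 among 31, and NRF2 targets 4 and 7 among 34, of which MGST1, a glutathione transferase, rose by 1.37.

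Of 35 apoptosis regulators, 11 rose and 8 fell (8 and 7 with the GC offset), beside 12.2% and 13.3% of all genes. TNFSF10, the death ligand TRAIL, went from 38.4, 42.6 and 43.0 CPM to between 1.48 and 13.6 (−3.04, SE 0.0633), and the death receptor FAS fell by 1.10. CFLAR, which blocks death receptor signalling, rose by 0.87, the inhibitor BIRC5 by 0.77 and the pro-death gene PMAIP1 by 1.41. Transporters and drug metabolism genes had 4 rises and 12 falls among 40 (3 and 8 with the GC offset, 4 and 9 without VCaP-CT replicate 1). ALDH1A3, a retinaldehyde dehydrogenase, was at −2.02, CYP4F8 at −1.99 and ALDH3B2 at −1.28. Interferon-stimulated genes had 4 rises and 6 falls among 33 (2 and 7 with the GC offset). MHC class I genes had 3 rises and 1 fall among 9, with B2M, the light chain of class I, going from 16.8, 17.9 and 18.1 CPM to between 27.8 and 98 (1.51, SE 0.0604). Chromatin modifiers had 10 rises and 8 falls among 53 (10 and 5 without VCaP-CT replicate 2, 8 and 5 without replicate 1, 9 and 5 with no filter) and metallothioneins 0 and 1 among 4.

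**Figure D3:**
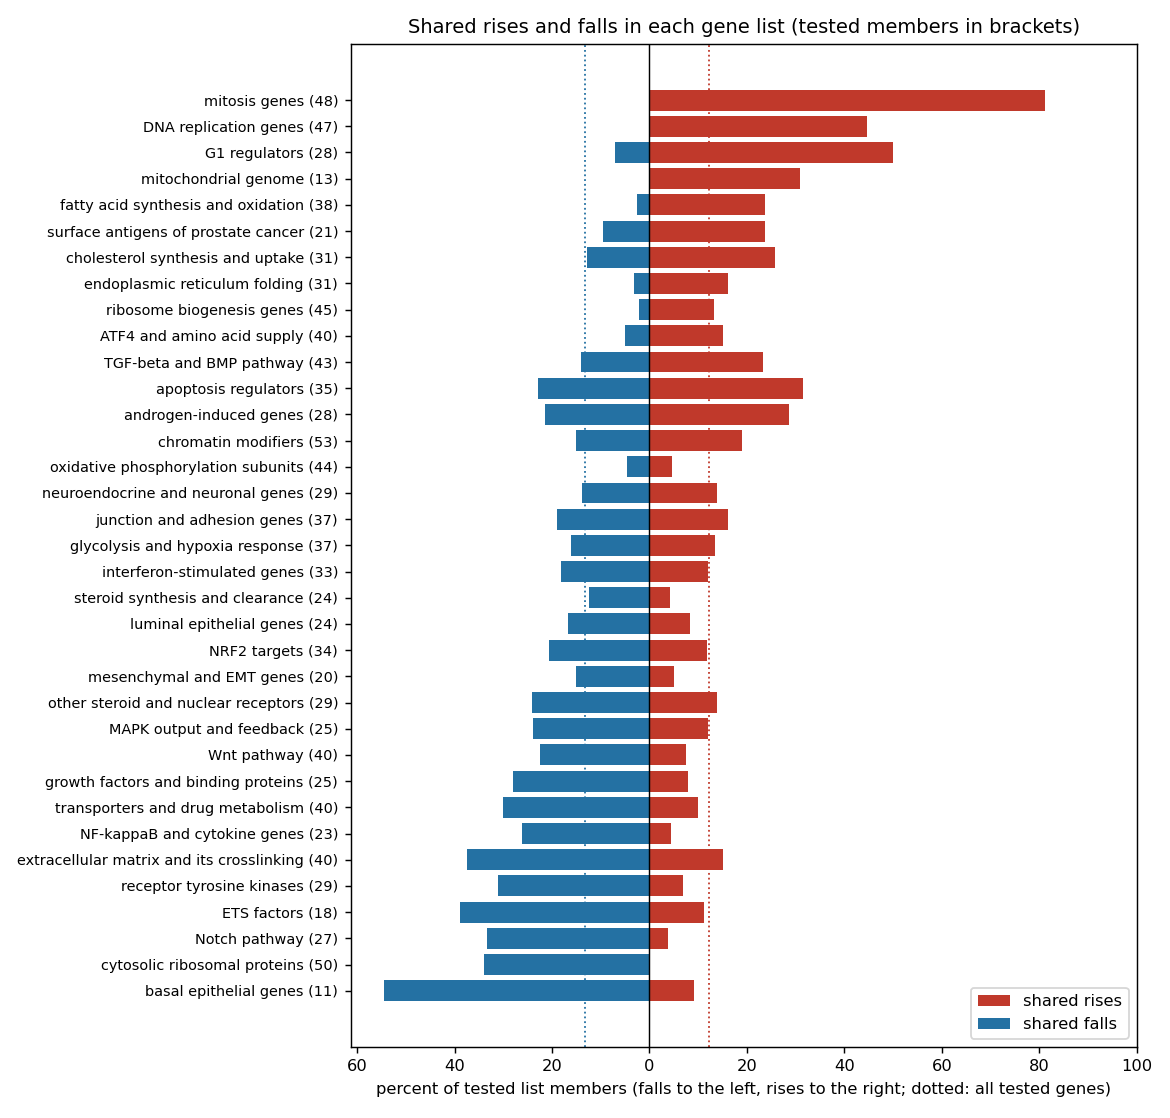
Percent of the tested genes of each gene list that rose (to the right) or fell (to the left) in all 3 sublines; dotted lines mark all tested genes, at 12.2% and 13.3%. The bar of the mitosis genes reaches furthest to the right, with 39 of 48.

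Gene lists used by the study gave the following counts. Of the marker genes of persistent cell clusters of LNCaP, another prostate cancer line, 251 of 532 rose and 23 fell (median 0.33). Of its 17-gene Persist list, 10 rose and 0 fell (0.61). The paper reports high expression of cell cycle genes in several of these clusters. It names PLK1, FOXM1, BIRC5, AURKA, AURKB and CCNA2 as expressed in a persistent cluster, and all of these are in the mitosis list above. The counts are therefore not independent of those of the mitosis genes. Markers of clusters most prevalent in parental cells and after a short enzalutamide exposure had 33 rises and 24 falls among 152 (21.7% and 15.8%). Those of enzalutamide-induced clusters had 28 and 24 among 168 (16.7% and 14.3%), near the shares over all genes. MYC targets had 49 rises and 8 falls among 190 in the first published version and 11 and 5 among 57 in the second. With the GC offset these were 43 and 17, and 23 and 4. The mTORC1 list had 10 and 1 among 36, the PROSGenesis list 12 and 16 among 75, the genes raised in neuroendocrine prostate cancer 3 and 7 among 34 (5 and 4 with the GC offset, 5 and 3 without VCaP-CT replicate 2), and those lowered in it 6 and 8 among 27.

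Shared direction did not mean equal size. The sublines differed from each other in 66.7% of all genes, and in 1727 of the shared rises (71.9%) and 1727 of the shared falls (66.0%). The change was largest in ER for 1018 rises and 1229 falls. The spread between the 3 log2 fold changes had a median of 0.30 for rises and 0.49 for falls. Among changes of 2-fold or more, RHOU, a small GTPase, was the most even rise: 61.9, 66.1 and 71.0 CPM in VCaP-CT, and 175 to 197 CPM in all 9 libraries (log2 fold changes 1.5, 1.45 and 1.47). POLQ, the polymerase of end joining (1.19, 1.15 and 1.14), and ARHGAP6 (1.24, 1.22 and 1.29) were close to it. Among falls, CST5 was even only in that it had 0 to 3 counts in VCaP-CT and 0 in all 9 libraries. The other most even falls were VEGFB (−1.09, −1.06 and −1.07), FZD8 (−1.34, −1.36 and −1.37) and IFNGR2, an interferon receptor subunit (−1.34, −1.31 and −1.29).

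At the other end, GPM6A, a neuronal membrane protein, had 0.142 to 0.242 CPM in VCaP-CT and 262 to 288, 0.744 to 1.17 and 31.3 to 33.5 CPM in ER, BR and BR-ER. PLOD2, a collagen hydroxylase, had 0.447 to 0.604 CPM in VCaP-CT and 172 to 215, 1.28 to 1.78 and 60.7 to 66.4. ATP2B2, a calcium pump, had 1, 1 and 2 counts in VCaP-CT and 521 to 721, 3 to 7 and 18 to 21 counts in the sublines, and its call in BR (adjusted p 0.0365, edgeR) was lost with DESeq2 (adjusted p 0.0662), with no filter on low counts (0.0653) and without BR replicate 1 or 3 or VCaP-CT replicate 1 or 2 (up to 0.154). TRPM8, a cold-sensing channel, fell from 197 to 210 CPM to 0.207 to 0.376, 88.2 to 90.1 and 4.8 to 6, with VCaP-T at 137 to 143. TMEM30B, a flippase subunit, had 85, 89 and 102 counts in VCaP-CT and 0 to 1, 62 to 77 and 13 to 24 in the sublines, and CA8 fell by 5.14, 0.66 and 3.00 on the log2 scale. In all 6 genes the smallest change was that of BR and the largest that of ER.

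**Figure D4:**
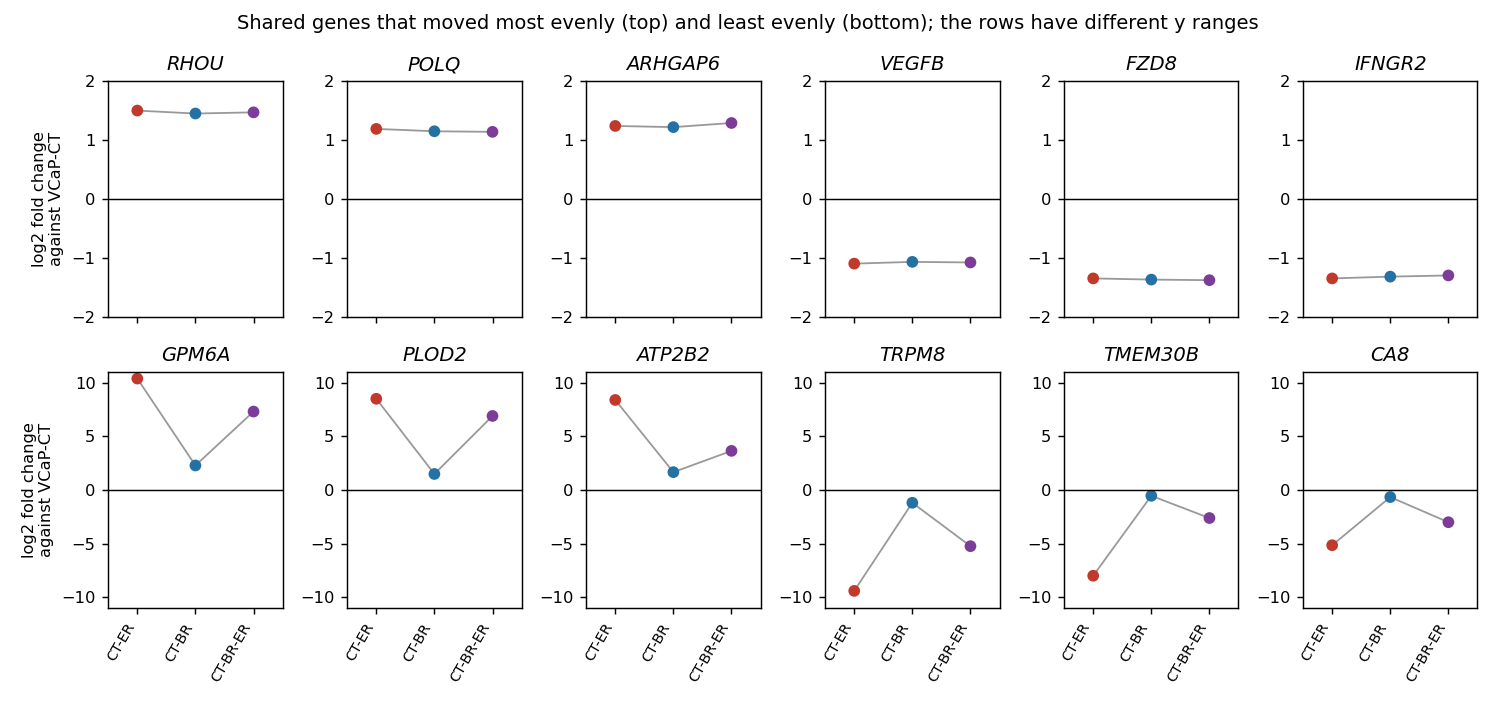
Log2 fold change over VCaP-CT in each subline for 6 of the most even (top, axis ±2) and 6 most uneven (bottom, axis ±11) shared genes. RHOU lies at 1.5, 1.45 and 1.47, and GPM6A at 10.37, 2.28 and 7.30, while the ER value of TMEM30B and all values of ATP2B2 rest on a group at or under 3 counts and depend on the prior count of the fit.

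What the outgrowth added was set beside the step from VCaP-T to VCaP-CT, which shares the VCaP-CT libraries, so values are given side by side with no test. The median log2 difference of VCaP-CT from VCaP-T was −0.07 for shared rises, 0.14 for shared falls and 0.03 for all genes. Against VCaP-T, the mean of the antagonist-resistant sublines was higher for 1728 rises, lower for 338 and not called for 337. For the falls it was lower for 1858, higher for 357 and not called for 401.

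Shared genes lay unevenly along the genome and along base composition. The median GC content of exons was 42.1% for rises, 54.7% for falls and 48.1% for all genes. With genes split into 5 groups of equal size by GC, 26.6% rose and 3.24% fell in the group with the lowest GC, and 2.19% rose and 25.2% fell in that with the highest. A fit with a GC offset in each library, added after seeing the data, gave 2073 rises and 2532 falls, of which 1476 and 1935 were also among the 2403 and 2616. In that fit the shares were 10.6% and 11.6% in the group with the lowest GC and 10.8% and 14.1% in that with the highest. Whether the dependence on GC arose in library preparation or in the cells was not tested.

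**Figure D5:**
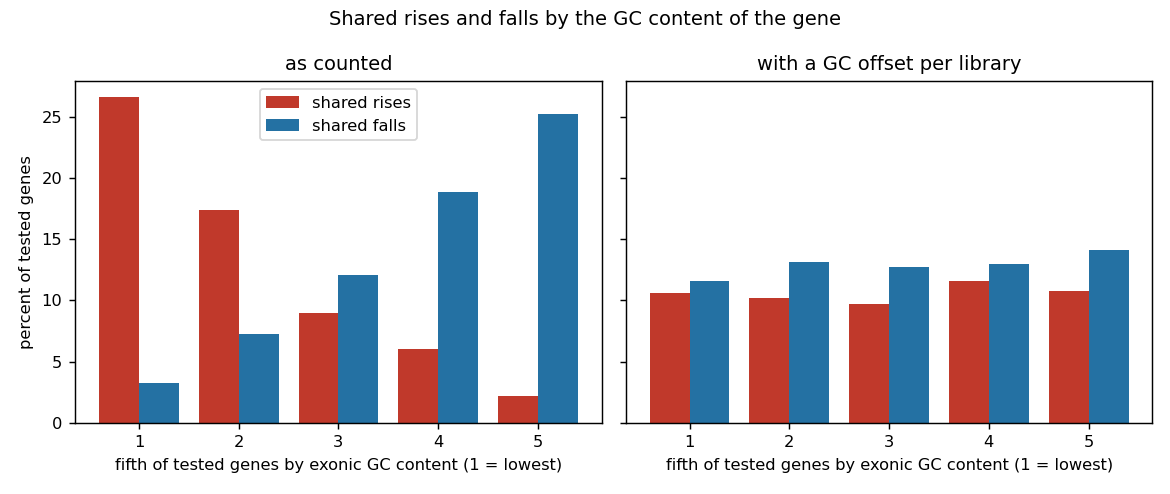
Percent of tested genes that rose or fell in all 3 sublines, by 5 groups of exonic GC content, as counted and with a GC offset per library. As counted, rises go from 26.6% at the lowest GC to 2.19% at the highest; with the offset they stay between 9.71% and 11.6%.

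Windows of 20 neighbouring genes with at least 10 shared in 1 direction merged into 35 segments (15 of rises and 20 of falls). Of these, 13 were found again with the GC offset, at least in part. The segments with the most shared genes were on chromosomes 11 and X of GRCh38. At chr11:62908679-65979828, 65 of 108 tested genes fell and 0 rose (median −0.71, with −0.80, −0.41 and −0.85 in ER, BR and BR-ER). LTBP3, VEGFB and ESRRA lie there. With the GC offset this stretch held only shorter segments, chr11:64103188-64803241 (15 of 30 fell) and chr11:65177606-65650930 (12 of 22 fell). Over all of chromosome 11, 22.4% of tested genes fell without the offset, beside 13.3% of all tested genes. At chr11:66345372-68053762, 35 of 59 fell (median −0.69), and with the GC offset 15 of 31 in the shorter segment chr11:67303448-68053762. On chromosome X, 35 of 70 genes between 11111301 and 24996986 rose (median 0.47), ARHGAP6 among them, and at chr14:50632058-55701526, 22 of 44 rose. With the GC offset, 34 of 70 rose in the same stretch of chromosome X, and 12 of 21 at chr14:52430590-55191678. DNA copy number was not measured in these data, so its part was not tested.

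Markers of other cell types were read as a check of the cultures. The summed level of 10 fibroblast markers was 10.1 to 11.3 CPM in VCaP-CT, 185 to 217 in ER, 24.6 to 25.5 in BR and 217 to 251 in BR-ER. This sum was almost all LUM, the proteoglycan lumican, at 4.87 to 7.16 CPM in VCaP-CT and 23.2 to 248 in the 9 libraries. Of the other markers, DCN also stood higher, at a low level. It averaged 0.0481 CPM in VCaP-CT and 0.417, 0.118 and 0.406 in ER, BR and BR-ER, with at most 22 counts in a library. COL1A2 was at 0 and THY1, DPT and FAP were at or under 3 counts in every library. COL1A1 averaged 1.01 CPM in VCaP-CT and 0.431, 0.694 and 0.906 in ER, BR and BR-ER, and PDGFRB 3.35 in VCaP-CT and 1.38, 0.477 and 0.701. The part of fibroblasts in the rise of LUM was not tested. The sum of 9 endothelial markers was 18.4 to 25.5 CPM in VCaP-CT and 7.54 to 14.4 in the 9 libraries, with KDR at 0 and CDH5 at or under 1 count. Of its 6 tested members 3 fell, among them VWF, by 4.55 on the log2 scale, and 1 rose. The sum of 10 leukocyte markers was 2.35 to 2.85 and 0.891 to 1.73 CPM, with CD3D and CD3E at 0.

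Long noncoding RNAs picked by the rule for naming genes included DNAH8-AS1 and NKILA. Others, known only by an identifier, are not described. DNAH8-AS1 went from 0.142 to 0.181 CPM in VCaP-CT to between 1.18 and 15.6, with VCaP-T at 16.6 to 19.0. NKILA, an RNA that interacts with NF-kappaB, went from 79.9, 81.0 and 81.2 CPM to between 15.9 and 27.9 (−1.84, SE 0.0468). Both overlap a gene on the other strand, DNAH8 and PMEPA1, and the counting did not separate strands. The same holds for EGFR, ESRRA, IFNGR2, TMEM30B, PEG10, KRT8, LIFR and CCNE2, where an antisense gene overlaps.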

How the data were processed

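Per the labels and the study's methods, RNA of 5 VCaP sublines with 3 replicates each was sequenced as paired ends, and reads were aligned by the authors with STAR 2.5.4b (GRCh38), who then counted fragments per gene of GENCODE with featureCounts 1.6.2, without strand and without multimapping or overlapping reads. The deposited values are raw counts per gene for 58381 genes, with no normalization.

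Genes were kept by filterByExpr (minimum count 10; 19621 genes) and tested in edgeR 4.0.16 (R 4.3.3) over all 15 libraries with a term per subline, TMM scaling, the quasi-likelihood F test and Benjamini-Hochberg adjustment over all tested genes at 0.05. The biological coefficient of variation was 0.0609. A shared gene passed in all 3 contrasts with VCaP-CT in 1 direction. The mean of the sublines weighted each equally. A log2 fold change in the text with 1 value is that mean contrast, with its standard error (SE). The largest adjusted p is that of the weakest of the 3 contrasts. The script was tested on simulated data. Gene lists were described by counts and medians, with no set test, and lists of the study came from its signature table. Members and lists were chosen with earlier results of these data known.

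Genes named were those with the largest smallest change over the 3 contrasts (12 of each direction, without overlap of libraries and with average log2 CPM of at least 1), up to 3 of each direction per list by the same order, the most even and most uneven genes, and a set of prostate genes; LUM, VWF, TMEFF2, FOLH1, STEAP2 and the genes of the promoter and mitosis figures were added as members of lists. Some genes that the rule names, and the lists tied to them, are not reported here.

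Depth was 33665716 to 46935279 counted fragments per library, and 3 counts, taken as the floor, are counting error only. Alternatives were DESeq2 1.42.0, other scalings, other filters, only the 12 libraries, a replicate block, leaving out each replicate and, added after seeing the data, a GC offset. Genes near-identical to a copy or overlapped by another are uncertain. Correlations of same-numbered replicates over 15255 genes ranged from −0.336 upward between sublines and did not pair the samples.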

Additional observations from a re-analysis of the deposited data

Results flagged for a closer look

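The same contrast with VCaP-CT differed in size between sublines for 30 of the shared genes named. The first criterion was a test of equality of the 3 sublines (edgeR quasi-likelihood F test, adjusted over all tested genes). The second was a spread of over 2 on the log2 scale between their largest and smallest log2 fold change. The test of equality called 66.7% of all tested genes. All 30 kept 1 direction in the 3 sublines because only shared genes were considered. Genes that are not shared, such as KLK3, were left out. Where a group is at or under 3 counts in its libraries, as TMEM30B in VCaP-CT-ER or ATP2B2 in VCaP-CT, the spread depends on the prior count of the fit and is no bound.

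Among rises, the spread was 8.10 for GPM6A, 7.0 for PLOD2, 6.73 for ATP2B2, 5.42 for TMEFF2, 4.05 for HNF4G and 3.60 for DNAH8-AS1. It was 3.33 for LUM, 3.29 for NR5A2, 3.10 for GRIA2, 2.88 for THNSL1, 2.81 for AASS, 2.47 for PPARGC1A and 2.37 for CPPED1. TMEFF2, a membrane protein of prostate, was at 7.72 to 9.17 CPM in VCaP-CT, at 11.9 to 13.5 in VCaP-CT-BR and at 544 to 554 in VCaP-CT-ER, with VCaP-T at 285 to 311.

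Among falls, the spread was 8.20 for TRPM8, 7.44 for TMEM30B, 4.48 for CA8, 4.32 for OR51E2, 4.26 for KCNH8 and 3.93 for OR51E1. It was 3.14 for DPP4, 3.00 for TNFSF10, 2.97 for VWF, 2.94 for RET, 2.71 for MAML2 and 2.40 for WNT5B. It was 2.31 for LDLRAD1, 2.22 for ADGRF5 and for KRT14, 2.12 for CST2 and 2.01 for TFF3. DPP4, a surface peptidase, was at 64.0 to 71.8 CPM in VCaP-CT, at 33.9 to 38.2 in VCaP-CT-BR and at 3.74 to 7.05 in the other resistant libraries.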

How the results depend on the processing

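The counts of shared rises (2403) and falls (2616) stayed within 1.5 times under DESeq2 (2350 and 2499), DESeq2 size factors (2419 and 2616), upper quartile scaling (2077 and 2909), both other filters, the 12 libraries alone, and the GC offset, under which 1476 and 1935 were the same genes. With the replicate block they were 2404 and 2589, and the block changed no count by over 1.5 times. The labels do not say what a replicate number shares. Requiring a 2-fold change gave 221 shared rises and 576 shared falls, 745 and 1436 genes for the mean of the sublines, 1562 and 1880 for VCaP-CT-ER, 579 and 1375 for VCaP-CT-BR, and 841 and 1611 for VCaP-CT-BR-ER. Windows of 30 genes with 15 shared gave 11 segments in place of 35.

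Leaving out 1 replicate at a time gave 2096 to 2441 shared rises and 2141 to 2664 shared falls, the lowest without VCaP-CT replicate 2. For the mean of the sublines it gave 4972 to 5603 higher and 5146 to 6046 lower genes, for VCaP-CT-ER 5531 to 6030 and 5620 to 6155, for VCaP-CT-BR 4426 to 5150 and 4499 to 5416, and for VCaP-CT-BR-ER 4699 to 5283 and 4600 to 5202. Over 23 alternatives, 145 named genes gave 3311 values, of which 3269 kept their call, 42 lost it and 0 reversed.

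For 32 rises with VCaP-CT at or under 3 counts and 20 falls with the 9 libraries there, the size of a fold is not given by these data. Each subline was derived 1 time, and subline and derivation cannot be told apart.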
